A study of Mus musculus with 8 samples.

Results

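The loci of 5 genes that drive clonal haematopoiesis were examined for chromatin accessibility in old and young mouse haematopoietic stem cells (HSCs). They are Dnmt3a, Tet2, Asxl1, Ezh2 and Trp53. A peak was a member when it lay fully inside a fixed interval of the mm9 build. The intervals were chr12:3790000-3925000 for Dnmt3a, chr3:133110000-133225000 for Tet2, chr2:153160000-153240000 for Asxl1, chr6:47470000-47555000 for Ezh2 and chr11:69385000-69415000 for Trp53. These held 51 of the 126871 peaks in the table, with 20 in the Dnmt3a locus, 8 in the Tet2 locus, 7 in the Asxl1 locus, 8 in the Ezh2 locus and 8 in the Trp53 locus.

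Bulk ATAC-seq had been run on 4 libraries of old HSCs and 4 libraries of young HSCs, all from the bone marrow of C57BL/6 mice and all sorted as LSK CD150+ CD48- cells. ATAC-seq marks open chromatin through a transposase that inserts sequencing adapters there, so the reads over a peak follow its accessibility. The labels give no ages, no treatment and no mutation in any of these genes, and they do not say whether libraries came from separate or pooled animals. P-values therefore measure the spread between libraries, which may be technical, and the effect of age cannot be told apart from whatever else set the groups apart.

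Clonal haematopoiesis is the outgrowth of blood cells from 1 stem cell that has gained a somatic mutation, and it becomes more common with age. Dnmt3a adds methyl groups to unmethylated CpG sites in DNA, and Tet2 oxidises methylated cytosine as a step towards its removal. Asxl1 is a cofactor of the deubiquitinase that acts on histone H2A, and Ezh2 is the catalytic subunit of Polycomb repressive complex 2, which methylates lysine 27 of histone H3. Trp53 encodes p53, the transcription factor that halts or kills cells after DNA damage. These genes drive the disorder when mutated, which is a separate matter from how open their loci are in unmutated cells.

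The promoters of the 3 genes whose loci held called peaks differ widely in CpG content, and 1 start site of each is shown because CpG sites are the substrate of Dnmt3a. Each runs 5′ to 3′ over 300 bases, from 250 before to 50 after the start site, as listed by RefSeq for GRCm38.p6, with CpG dinucleotides in capitals. RefSeq gives Dnmt3a 3 such promoters and the other 4 genes 1 each.
Dnmt3a, chr12:3806730-3807029, plus strand: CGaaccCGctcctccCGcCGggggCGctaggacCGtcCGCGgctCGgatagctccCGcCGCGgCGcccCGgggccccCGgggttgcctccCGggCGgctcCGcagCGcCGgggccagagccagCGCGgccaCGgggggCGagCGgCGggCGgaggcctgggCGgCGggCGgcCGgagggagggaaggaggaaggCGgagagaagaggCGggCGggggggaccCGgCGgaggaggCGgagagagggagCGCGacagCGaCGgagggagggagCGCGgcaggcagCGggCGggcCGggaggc
Tet2, chr3:133544341-133544640, minus strand: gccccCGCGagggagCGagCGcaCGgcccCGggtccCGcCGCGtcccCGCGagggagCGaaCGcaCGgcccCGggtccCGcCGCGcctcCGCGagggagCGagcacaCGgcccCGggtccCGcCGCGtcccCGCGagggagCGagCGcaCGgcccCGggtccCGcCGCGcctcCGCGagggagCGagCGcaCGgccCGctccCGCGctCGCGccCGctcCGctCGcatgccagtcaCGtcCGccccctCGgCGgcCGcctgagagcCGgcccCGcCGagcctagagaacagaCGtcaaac
Trp53, chr11:69580109-69580408, plus strand: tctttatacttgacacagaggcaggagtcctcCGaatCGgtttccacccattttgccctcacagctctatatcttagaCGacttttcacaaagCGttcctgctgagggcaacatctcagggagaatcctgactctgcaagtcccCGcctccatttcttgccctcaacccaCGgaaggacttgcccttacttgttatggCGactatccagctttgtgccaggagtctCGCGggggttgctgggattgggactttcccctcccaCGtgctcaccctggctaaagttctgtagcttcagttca
The Tet2 promoter held 57 CpGs, more than 99.8% of the 32851 mouse promoters in the RefSeq table. The Dnmt3a promoter shown held 46 and the remaining Dnmt3a promoters held 47 and 18, while the Trp53 promoter held 10, close to the median promoter at 7. The Ezh2 promoter held 31 CpGs and the Asxl1 promoter 13. Both strands were searched for 4 short motifs, which were the E-box CACGTG, the motif CCGGAAG bound by ETS factors, the motif AGATAAG bound by erythroid and stem cell zinc-finger factors of the GATA family, and the motif TGTGGTT bound by RUNX factors; none of these contains another. The E-box was in the Trp53 promoter and in 1 of the 3 Dnmt3a promoters, against 7.15% of all promoters, and CCGGAAG was in the Asxl1 promoter, against 8.86% of all promoters. The GATA-family motif, present in 3.04% of promoters, and the RUNX motif, present in 5.27%, were in none of the 7 promoters of these genes. The peaks are in mm9, so the promoters were not placed on them and no peak is assigned to a promoter, an exon or an intron. In the RefSeq gene order the protein-coding neighbours are Dtnb and Pomc for Dnmt3a, Ppa2 and Cxxc4 for Tet2, Kif3b and Nol4l for Asxl1, Cul1 and Gm40369 for Ezh2, and Wrap53 and Atp1b2 for Trp53, so a peak near the edge of an interval may belong to a neighbour.

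Library totals ran from 4200905 to 5129684 counts in old libraries and from 4229913 to 4992173 counts in young libraries. Levels are in CPM, the usual unit of counts scaled to library size, and a log2 fold change is old over young. Genome-wide, old replicate 4 was not close to the rest of its group. On the first principal component of all tested peaks its score was -13.7, with the other old libraries between -111 and -96.6 and young ones between 52.9 and 99.0. Each result is therefore also given without it where that changes a call. It was singled out on these same peaks, and leaving out the old library nearest the young ones can widen group differences. Fits without it are therefore descriptions and give no added support. Whether the label HSC fits the marker loci of other cell types was not analysed here.

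As whole loci, none of the 5 passed a test of difference between old and young HSCs. Summed over all peaks of a locus, the largest fold difference was at Trp53, at 100.3 CPM in old libraries against 111 CPM in young ones, and 0 of 5 sums passed the edgeR quasi-likelihood test at a Benjamini-Hochberg adjusted p below 0.05. Of the 16769 windows and loci tested together 29.4% passed, with 17.1% higher and 12.2% lower in old HSCs. None of the 5 had an unadjusted edgeR p below 0.05, and DESeq2 and limma voom called 0 as well. A p above the threshold does not show that the loci were alike, so the 95% interval of each ratio is given. In bulk libraries, fewer cells with an open site and a less open site in each cell cannot be told apart.

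At the Dnmt3a locus the sums were 416, 401, 413 and 409 CPM in old libraries, against 410.2, 423, 425 and 425 CPM in young libraries. The old values lay at the lower end and overlapped the lowest young library. Its log2 fold change was -0.04 with a standard error of 0.03 (edgeR adjusted p = 0.416; two-sided exact permutation p = 0.0857), and the interval of the ratio ran from 0.926 to 1.02.
At the Tet2 locus the sums were 74.3, 69.8, 70.8 and 67.8 CPM in old libraries and 65.8, 69.2, 80.3 and 70.01 CPM in young libraries. The groups overlapped almost fully, and the ratio had an interval of 0.889 to 1.11 (edgeR adjusted p = 0.922).
At the Asxl1 locus the sums were 110.0, 113, 111 and 111 CPM in old libraries and 109.8, 99.7, 120.0 and 109 CPM in young libraries. All old values lay inside the young range, with an interval of the ratio from 0.932 to 1.11 (edgeR adjusted p = 0.792).
At the Ezh2 locus the sums were 81.0, 66.5, 74.3 and 77.3 CPM in old libraries and 81.4, 80.0, 74.8 and 78.2 CPM in young libraries. Old replicate 2 was lowest, the groups overlapped, and the interval ran from 0.855 to 1.05 (edgeR adjusted p = 0.460).
At the Trp53 locus the sums were 97.5, 93.0, 97.1 and 113 CPM in old libraries, against 119, 108, 110.3 and 105.6 CPM in young libraries. Old replicates 1 to 3 lay below every young library, and old replicate 4 lay above 3 of them. With all libraries the log2 fold change was -0.14 with a standard error of 0.07 (edgeR adjusted p = 0.126; two-sided exact permutation p = 0.1143), with an interval of the ratio from 0.823 to 1.0. Without old replicate 4 it was -0.20 ± 0.06 (edgeR adjusted p = 0.0143), which passed the test. The smallest p that the exact test over 4 against 4 libraries can give is 0.0286.

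**Figure D1:**
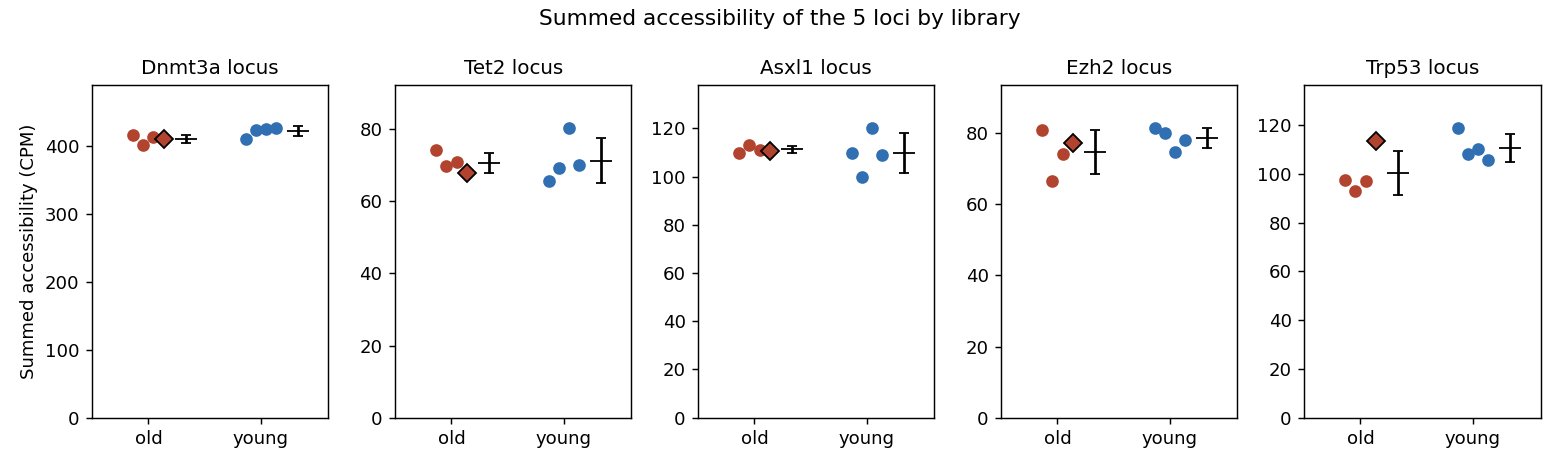
Summed accessibility in CPM (vertical axis, from 0) of all peaks in each of the 5 loci, for 4 old and 4 young libraries. Each point is 1 library, the black-edged diamond is old replicate 4, and the bar with caps is the mean ± SD; the groups overlap at each locus, and at Trp53 the 3 old circles lie below every young point.

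Per kilobase of peak the levels differed between loci, a value that also depends on how many weak peaks each locus holds. In old libraries the strongest peaks alone had 38.5 CPM per kb at Tet2, 39.2 at Ezh2, 45.3 at Asxl1, 46.4 at Trp53 and 92.9 at Dnmt3a. The Dnmt3a locus had 29.3 CPM per kb of peak in old libraries and 30.1 in young libraries, over 14000 bases of peaks. The Trp53 locus had 26.3 and 29.1, the Asxl1 locus 26.1 and 25.8, the Tet2 locus 17.6 and 17.7 and the Ezh2 locus 16.1 and 17.0 CPM per kb in old and young libraries. Peaks were densest at Trp53, at 26.7 per 100 kb, and sparsest at Tet2, at 6.96 per 100 kb, where 1 stretch of 46301 bases held no peak.

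Of the 51 peaks, 30 passed the filter on low counts and were tested one by one. Of these, 0 were called higher and 4 were called lower in old HSCs, taking an edgeR adjusted p below 0.05 as a call. Among all 73164 tested peaks 10% were called higher and 10.4% lower, 20.5% together, so the 4 of 30 are below the overall share and the 4 lower calls are near the share of lower calls. At an unadjusted edgeR p below 0.05 there were 3 higher and 5 lower members, 26.7% together, against 33.2% of all tested peaks. DESeq2 and limma voom called 0 members higher. The median log2 fold change was -0.10 over the 30 and 0.01 over all tested peaks, and 19 of the 30 were below 0, against 49.0% of all tested peaks. Old and young libraries did not overlap at 2 of the 30, both lower in old HSCs, against 21.1% of all tested peaks. None of the 4 calls held through every omission: each was lost when at least 1 library was left out. None passed an adjusted p of 0.01. The fold change of each kept its sign in all 8 fits with 1 library left out. Without old replicate 4 there were 2 higher and 6 lower, where 30.0% of all tested peaks were called.

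**Figure D2:**
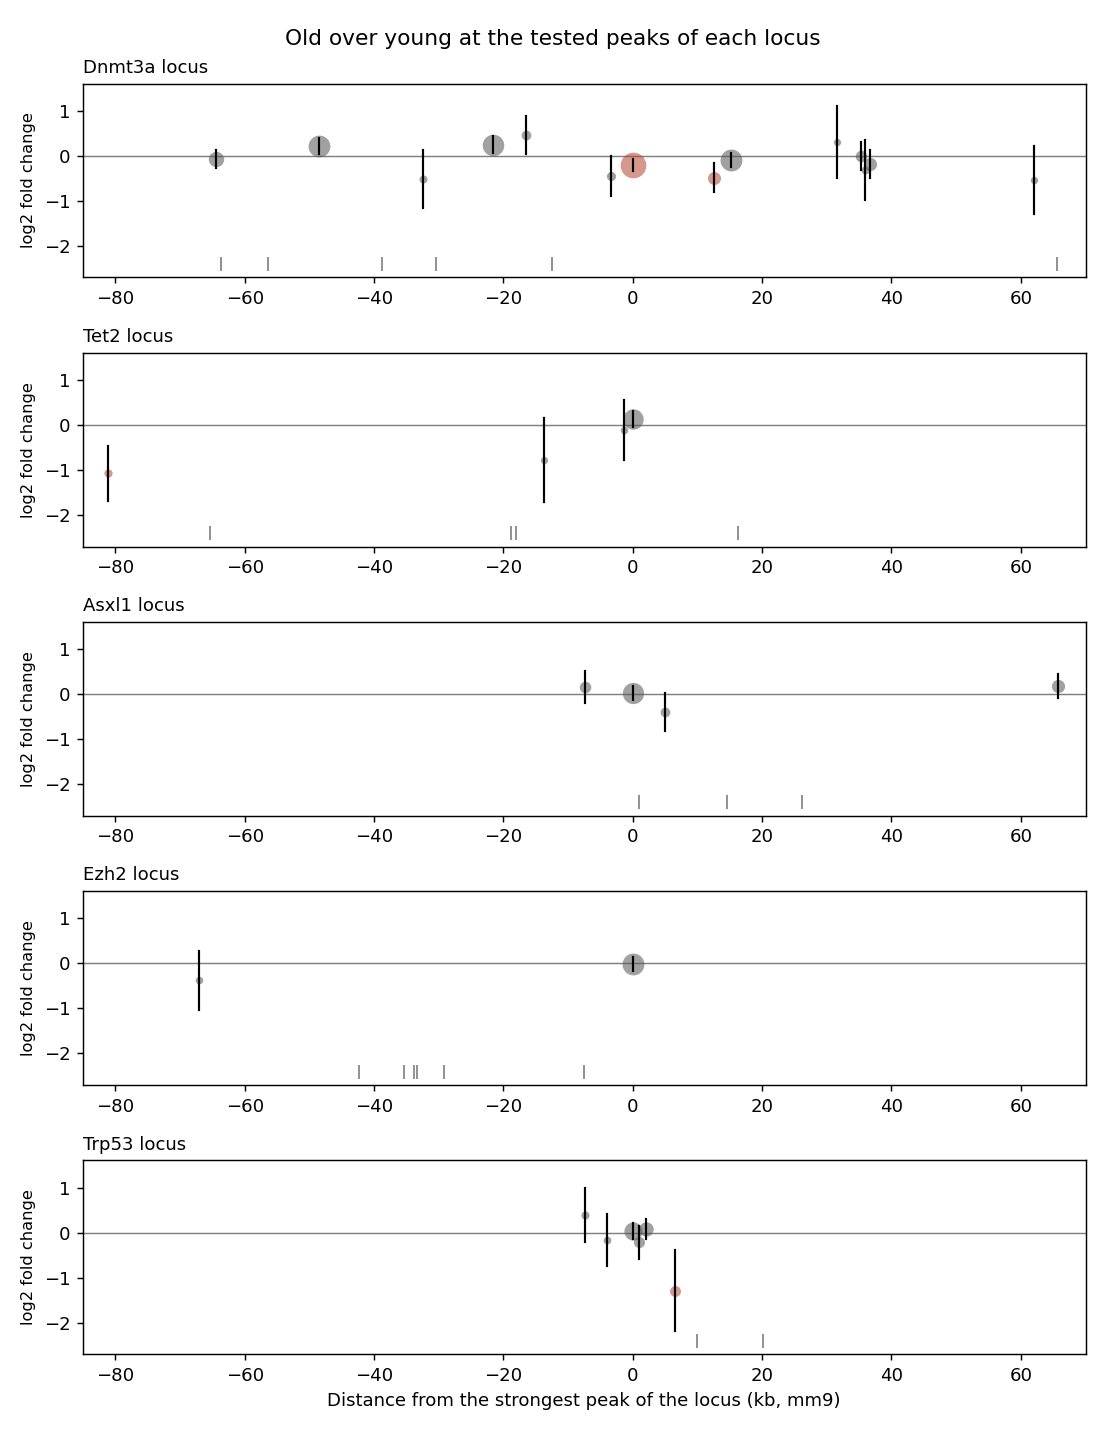
Log2 fold change, old over young (vertical axis), of each tested peak against its distance in kb from the strongest peak of its locus (horizontal axis, mm9). Circle area grows with mean CPM, black lines are 95% intervals and red circles are the 4 called peaks. Grey ticks at the bottom are peaks below the count filter. The large circles lie near 0 and the red circles of the Tet2 and Trp53 loci lie below -1.

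The Dnmt3a locus had 14 tested peaks, of which 2 were called lower in old HSCs and 0 higher. It was the only one of the 5 loci with more than 1 strong peak, taking a mean of 40 CPM or more as strong. Its strongest peak, chr12:3855628-3856579, had 86.6, 86.5, 81.6 and 99.2 CPM in old libraries, against 104, 98.7, 104 and 102 CPM in young libraries. Old replicates 1 to 3 lay below every young library, while old replicate 4 lay just above young replicate 2. Its mean was 88.5 ± 7.53 CPM in old libraries against 102 ± 2.34 CPM in young ones (SD, n = 4 each), a fall of 0.20 ± 0.06 on the log2 scale (log2 fold change -0.20, SE 0.06; edgeR adjusted p = 0.0299). The peak holds 21.6% of the locus level in old and 24.2% in young libraries. The change is small, and the call was lost without old replicate 1 (edgeR adjusted p = 0.100), old replicate 2 (0.104), old replicate 3 (0.152), young replicate 1 (0.0690), young replicate 3 (0.0675) or young replicate 4 (0.0543). It was also lost with DESeq2 (adjusted p = 0.0700) and with no count filter (edgeR adjusted p = 0.0887).

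The second called Dnmt3a peak, chr12:3868470-3868959, lies 12.6 kb from the first. It had 13.5, 18.3, 17.3 and 17.4 CPM in old libraries, against 23.3, 17.9, 22.0 and 30.6 CPM in young libraries. Young replicate 2 lay among the old libraries, young replicate 4 was the highest, and old replicate 4 did not stand apart from the rest of its group here. The mean was 16.6 ± 2.13 CPM in old libraries against 23.4 ± 5.29 CPM in young ones (SD, n = 4 each), with a log2 fold change of -0.49 with a standard error of 0.16 (edgeR adjusted p = 0.0293). The call was lost without old replicate 1 (edgeR adjusted p = 0.116), old replicate 2 (0.0503), old replicate 3 (0.0662), young replicate 1 (0.0613) or young replicate 4 (0.157). DESeq2 gave an adjusted p of 0.0571.

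Strong peaks on the other side of the locus tended the other way without passing the test. Over all tested peaks of 40 CPM or more, the median log2 fold change was 0.07 and 30.9% were below 0. The peak chr12:3806239-3808892, the widest of the 51 at 2654 bases, had 75.1, 71.1, 80.7 and 62.0 CPM in old libraries, against 56.2, 66.9, 62.3 and 62.5 CPM in young libraries. Old replicates 1 to 3 lay above every young library and old replicate 4 lay inside the young range. This gave a log2 fold change of 0.22 with a standard error of 0.08 (edgeR adjusted p = 0.0614), and without old replicate 4 it was 0.29 ± 0.08 (edgeR adjusted p = 0.00357).
The peak chr12:3833685-3835326 had 74.1, 69.0, 74.0 and 66.4 CPM in old libraries, against 47.3, 68.8, 60.8 and 61.8 CPM in young libraries. Young replicate 1 was lowest and young replicate 2 reached the old range. The log2 fold change was 0.24 with a standard error of 0.09 (edgeR adjusted p = 0.0599), and it was called higher without old replicate 4 (0.28 ± 0.09; edgeR adjusted p = 0.0200) and without young replicate 2 (0.32 ± 0.09; edgeR adjusted p = 0.0166). The peak chr12:3806239-3808892 was called higher without young replicate 2 too (edgeR adjusted p = 0.0441), and both were called with no count filter (edgeR adjusted p = 0.0369 and 0.0343). With a library other than old replicate 4 or young replicate 2 left out, neither was called. The change at chr12:3833685-3835326 fell to 0.15 ± 0.08 without young replicate 1 (edgeR adjusted p = 0.204). That at chr12:3806239-3808892 fell to 0.17 ± 0.09 without old replicate 3 (edgeR adjusted p = 0.186). The remaining strong peak, chr12:3870757-3871868, had 65.6 ± 4.47 CPM in old libraries against 69.6 ± 5.80 CPM in young ones (SD, n = 4 each; edgeR adjusted p = 0.452).

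Added together, the 2 strong Dnmt3a peaks with a positive change had 149, 140.1, 155 and 128 CPM in old libraries and 104, 136, 123 and 124 CPM in young libraries. The 2 strong peaks with a negative change had 155, 147, 145 and 170 CPM in old libraries and 181, 169, 169 and 167 CPM in young libraries. Their ratio was 0.964, 0.953, 1.07 and 0.757 in old libraries against 0.571, 0.804, 0.728 and 0.744 in young libraries. Old replicates 1 to 3 lay above every young library and old replicate 4 lay inside the young range. These peaks were grouped by direction after their values were seen, so the ratio is a description with no test. The other 9 tested Dnmt3a peaks had log2 fold changes from -0.54 to 0.46 and none was called. At chr12:3852583-3852875 all old libraries, at 5.30 to 6.0 CPM, lay below all young libraries, at 6.46 to 9.25 CPM, without passing the test (edgeR adjusted p = 0.140). The weak peak chr12:3823390-3824082 was called lower without old replicate 4 (log2 fold change -0.99 ± 0.30; edgeR adjusted p = 0.0125), where old replicates 1 to 3 had 2.80, 2.31 and 2.08 CPM, old replicate 4 had 6.0 CPM and the young libraries had 4.90, 4.63, 4.50 and 5.17 CPM.

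At the Tet2 locus 4 of 8 peaks were tested, and 1 was called lower. The called peak, chr3:133126135-133126598, is weak and lies at -81.2 kb relative to the strongest peak. It had 1.53, 2.31, 3.0 and 4.34 CPM in old libraries, against 5.60, 4.63, 7.0 and 6.89 CPM in young libraries, from 6, 11, 13 and 21 counts in old and 24, 22, 28 and 32 in young libraries. All old libraries lay below all young libraries, with old replicate 4 closest to the young ones. The level in old HSCs was 0.464 of that in young HSCs, a log2 fold change of -1.08 with a standard error of 0.29 (edgeR adjusted p = 0.0123). Of the 4 calls it was the one that DESeq2 also made (adjusted p = 0.0338). It was lost without old replicate 1 (-0.88 ± 0.30; edgeR adjusted p = 0.0526) and held with each of the other 7 libraries left out, reaching -1.36 ± 0.31 without old replicate 4 (edgeR adjusted p = 0.000992).

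The strongest Tet2 peak, chr3:133206777-133208345, was not called. It had 65.2, 61.4, 60.2 and 54.6 CPM in old libraries and 51.3, 57.2, 62.0 and 49.3 CPM in young libraries, and the groups overlapped. Its log2 fold change was 0.13 with a standard error of 0.08 (edgeR adjusted p = 0.271), with a 95% interval from -0.04 to 0.31. The other 2 tested peaks had log2 fold changes of -0.78 and -0.12, and chr3:133193614-133194097 was called lower without old replicate 4 (-1.29 ± 0.49, edgeR adjusted p = 0.0444). That peak rests on few counts, with 1, 5, 7 and 13 in old libraries and 10, 8, 13 and 13 in young libraries. All 7 Tet2 peaks other than the strongest summed to 9.17, 8.41, 10.6 and 13.2 CPM in old libraries, against 14.5, 11.99, 18.3 and 20.7 CPM in young libraries. Old replicate 4 was the highest old library there and passed young replicate 2. The strongest peak accordingly took 85.3 ± 3.46% of the locus in old libraries against 77.1 ± 5.03% in young ones (SD, n = 4 each), a description with no test.

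**Figure D3:**
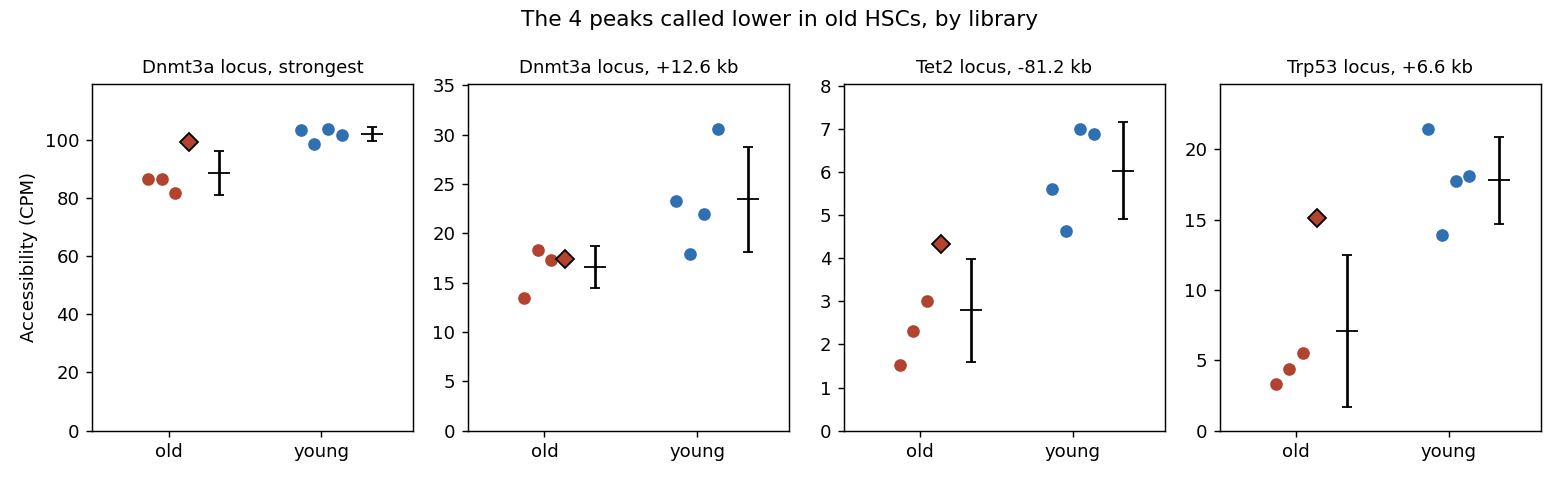
Accessibility in CPM (vertical axes, from 0) of the 4 peaks called lower in old HSCs, in 4 old and 4 young libraries; distances in the titles are from the strongest peak of the locus. Points are libraries, the black-edged diamond is old replicate 4 and bars with caps are the mean ± SD; in 3 of the 4 plots the diamond is the old library closest to the young ones, and at the Trp53 peak it lies at 15.1 CPM against 3.31 to 5.54 CPM in the other old libraries.

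At the Asxl1 locus 4 of 7 peaks were tested and 0 were called in either direction by edgeR, DESeq2 or limma voom, with 0 at an unadjusted edgeR p below 0.05. The strongest, chr2:153170969-153172370, had 63.9, 62.9, 64.8 and 62.6 CPM in old libraries and 65.3, 56.0, 70.5 and 60.3 CPM in young libraries. The old libraries were close to each other and lay inside the young range. This gave a log2 fold change of 0.02 with a standard error of 0.07 (edgeR adjusted p = 0.913), and the interval of the ratio was 0.907 to 1.13. The smallest p at this locus belonged to chr2:153176312-153176963, at 7.39 ± 1.84 CPM in old libraries against 9.81 ± 0.998 CPM in young ones (SD, n = 4 each; log2 fold change -0.39 ± 0.20; edgeR adjusted p = 0.184). The 2 remaining tested peaks had log2 fold changes of 0.16 and 0.19.

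At the Ezh2 locus 2 of 8 peaks were tested and 0 were called by edgeR, DESeq2 or limma voom, with 0 at an unadjusted edgeR p below 0.05. Accessibility was concentrated in chr6:47544047-47545746, which had 74.6, 57.2, 68.3 and 66.6 CPM in old libraries and 69.7, 69.4, 63.0 and 66.8 CPM in young libraries. The old libraries were spread more widely and spanned all young values. The log2 fold change was -0.02 with a standard error of 0.08 (edgeR adjusted p = 0.905), and the interval of the ratio was 0.884 to 1.10. This peak held 89.1 ± 3.43% of the locus in old and 85.5 ± 1.05% in young libraries. The other tested peak, chr6:47477628-47478181, had 2.37 ± 0.529 CPM in old libraries against 3.14 ± 0.738 CPM in young ones (SD, n = 4 each; edgeR adjusted p = 0.442). The 7 Ezh2 peaks other than the strongest summed to 6.36, 9.26, 6.00 and 10.7 CPM in old libraries, against 11.7, 10.5, 11.8 and 11.4 CPM in young libraries. Old replicates 1 to 3 lay below every young library, and old replicate 4 lay just above young replicate 2.

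At the Trp53 locus 6 of 8 peaks were tested and 1 was called lower. The called peak, chr11:69399244-69399706, had 3.31, 4.42, 5.54 and 15.1 CPM in old libraries, against 21.5, 13.9, 17.8 and 18.1 CPM in young libraries. The counts behind these were 13, 21, 24 and 73 in old libraries and 92, 66, 71 and 84 in young libraries. Old replicates 1 to 3 lay far below the young libraries, and old replicate 4 lay within the young range. With all 8 libraries the log2 fold change was -1.29 with a standard error of 0.40 (edgeR adjusted p = 0.0495), at the edge of the threshold. Without old replicate 4 it was -1.98 ± 0.21 (edgeR adjusted p = 4.81e-08), the smallest adjusted p among the members in any of these fits. That library was singled out on these same data. Without it 30.0% of all tested peaks were called, against 20.5% with all libraries. With each of the other 7 libraries left out it was not called, at an edgeR adjusted p of 0.0735 without old replicate 1, 0.110 without old replicate 2, 0.122 without old replicate 3, 0.0964 without young replicate 1, 0.0558 without young replicate 2, 0.0899 without young replicate 3 and 0.101 without young replicate 4. DESeq2 gave an adjusted p of 0.0512 with all libraries, while loess offsets and no count filter gave edgeR adjusted p-values of 0.0543 and 0.0658. Whether old replicate 4 differs here in its cells or in its preparation was not tested.

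None of the 5 other tested Trp53 peaks was called. The strongest Trp53 peak, chr11:69392407-69393388, lies 6.58 kb away and had 44.8, 43.1, 42.9 and 51.5 CPM in old libraries and 43.8, 47.3, 43.5 and 43.1 CPM in young libraries. Old replicate 4 was the highest of the 8 and the other libraries were mixed. Its log2 fold change was 0.04 with a standard error of 0.08 (edgeR adjusted p = 0.802), and the interval of the ratio was 0.910 to 1.16. The peak chr11:69394654-69395194 had 26.7 ± 0.921 CPM in old libraries against 25.3 ± 1.66 CPM in young libraries, and chr11:69393578-69394041 had 11.9 ± 2.92 CPM in old libraries against 13.7 ± 1.11 CPM in young ones (SD, n = 4 each). The 2 remaining tested peaks had log2 fold changes of 0.39 and -0.17. Between old and young libraries the called peak and the whole locus differed by similar amounts, with peak means of 7.09 CPM in old libraries and 17.8 CPM in young ones, beside locus sums of 100.3 and 111 CPM.

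Across the 5 loci, the strongest peak of each was among the strongest 6.41% of all tested peaks. Apart from the Dnmt3a peak chr12:3855628-3856579, none of these was called in the fit of all libraries or in any of the alternatives. The share of a locus held by its strongest peak was 45.5 ± 0.955% in old and 40.2 ± 2.85% in young libraries at Trp53, with no overlap between groups, and 57.2 ± 1.26% and 57.4 ± 1.96% at Asxl1 (SD, n = 4 each). At Dnmt3a it was 21.6 ± 1.91% in old and 24.2 ± 0.815% in young libraries. These shares are descriptions with no test, and the share at Trp53 includes the called peak in its denominator.

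**Figure D4:**
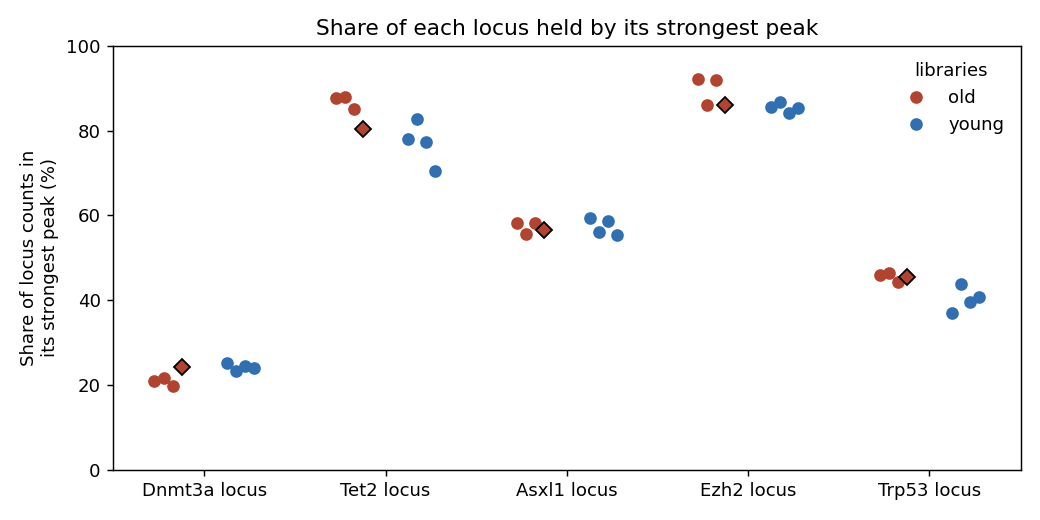
Share of each locus level held by its strongest peak, in percent (vertical axis), for 4 old and 4 young libraries at each of 5 loci. Each point is 1 library and the black-edged diamond is old replicate 4; old points lie to the upper side at Tet2, Ezh2 and Trp53, to the lower side at Dnmt3a and among the young points at Asxl1.

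Of the 22 tested peaks under 40 CPM, 16 had a log2 fold change below 0, or 72.7%, against 50.5% of all tested peaks under 40 CPM. Of the 22, 3 were called, all lower, or 13.6%, against 20.5% called and 10.9% called lower among all tested peaks under 40 CPM. Of the 8 at 40 CPM or more, 3 were below 0, or 37.5%, against 30.9% of all tested peaks of that strength. Of the 8, 1 was called, lower, or 12.5%, against 20.7% called and 5.16% called lower among all tested peaks of that strength. The median log2 fold change was 0.03 over the 8 and 0.07 over all tested peaks of that strength. A further 21 peaks fell below the count filter, with means between 0.374 and 2.10 CPM. Of these, 17 had a lower mean in old libraries and 4 a higher one. The 17 are 81.0%, against 57.4% of all peaks below the filter. The old libraries all lay below the young ones at 2 of the 21. The share of such peaks among all peaks below the filter was not computed, so this count cannot be set against it. At chr3:133188570-133188960 in the Tet2 locus the levels were 0, 0.421, 0.923 and 0.827 CPM in old libraries and 1.40, 1.05, 1.5 and 2.37 CPM in young libraries. At chr2:153197637-153197894 in the Asxl1 locus they were 0.764, 0.631, 0.461 and 0 CPM in old libraries and 0.933, 1.47, 1.0 and 1.29 CPM in young libraries. Both peaks rest on 0 to 11 counts per library. They were tested only in the fit with no count filter, where all 51 members were tested and neither was called. The cut at 40 CPM was chosen after the values were seen, and peaks of 1 locus share libraries and neighbourhood, so these counts are descriptions.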

How the data were processed

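Whole-number read counts per peak were used as deposited by the authors, not normalized, over 1 peak set shared by all 8 libraries. Omni-ATAC libraries were made with a Nextera kit, per the labels' protocols. MACS2, Bowtie2, Picard, SAMtools, FastQC, Trim Galore and the mm9 build are named, with no versions, per the submitters' processing notes; how peaks were merged and counted, and whether read ends were shifted, is not given in the sources used here. Sites outside the deposited peaks were not measured.

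Peaks were kept with filterByExpr (minimum count 10, minimum total 15), leaving 73164 with 94.2% of the counts. CPM used TMM scaling. Groups were compared with edgeR 4.0.16 (glmQLFit, robust; glmQLFTest; R 4.3.3), group as the only term, Benjamini-Hochberg over all peaks; log2 fold changes are old over young, and 95% intervals come from the same fit. Locus sums were added to a table of windows of 100000 bases and tested over all 16769. Sums were also compared by two-sided exact permutation over 70 assignments of libraries, for 5 loci. The fit was tested on simulated data. Named peaks were, per locus, those called, the strongest, and that with the smallest p where none was called; others are named for calls under alternatives or for their level, after their values were seen. Alternatives were DESeq2 1.42.0 size factors and test, limma 3.58.1 voom, total count scaling, loess offsets, count filters, a stricter threshold, a replicate block, wider bounds, filtered sums, the window table's own scaling and each library left out. The loci and lists were chosen with earlier results of these data known. Other clonal haematopoiesis genes and cell type markers were not analysed here, since no mm9 annotation was used.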

Additional observations from a re-analysis of the deposited data

Results flagged for a closer look

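Each group of 4 values was checked for 1 library distant from the rest, over the 10 named peaks and the 5 locus sums. Of 30 groups 1 stood out, where chance gives about 1 in 20. Young replicate 1 had the lowest sum at the Dnmt3a locus among young libraries, with 410.2 CPM against 423 to 425 CPM in the others. This is the library that brings the young range into contact with the old one at that locus.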

How the results depend on the processing

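The number of peaks called higher was 0 with all libraries and became 2 with no count filter, 1 with the replicate block, 1 with bounds widened by 25 kb and 0 to 2 with 1 library left out. The number called lower was 4 and became 2 with no count filter, 1 with DESeq2, 0 at an adjusted p below 0.01 and 0 to 6 with 1 library left out, where it was 0 without old replicate 1 and 6 without old replicate 4. Calls over all tested peaks moved too. Higher calls were 7352 of 73164 with all libraries, 10733 of 126871 with no count filter and 8111 of 73164 with the replicate block. Lower calls were 7634 of 73164 with all libraries and 9753 of 126871 with no count filter. They were 5215 of 73164 with DESeq2 and 3678 of 73164 at an adjusted p below 0.01. Wider bounds took in 24 more peaks, and the higher one, chr2:153262330-153263320 beyond the Asxl1 interval, had 10.2 ± 2.07 CPM in old libraries against 3.91 ± 1.80 CPM in young ones (SD, n = 4 each; edgeR adjusted p = 0.00134). The cause of these moves was not tested, except that a stricter threshold gives fewer calls by construction. Fewer libraries give less power, and how far that moved the calls was not tested. Among all tested peaks 14.4% were called without old replicate 1, 20.7% without young replicate 2 and 30.0% without old replicate 4, against 20.5% with all libraries. With any other library left out the share was 13.8% to 16.0%. With 1 library left out, the log2 fold change of the sum was -0.05 to -0.02 at Dnmt3a, -0.05 to 0.05 at Tet2, -0.02 to 0.07 at Asxl1, -0.10 to -0.01 at Ezh2 and -0.20 to -0.092 at Trp53, the last being called without old replicate 4 alone. No other alternative called a sum, including the window table's own scaling, which was added after seeing the data. Replicate numbers are shared between groups, and deviations of same-numbered libraries correlated at -0.0140, 0.0736, 0.0495 and 0.179. Old replicate 1 was closest to young replicate 2, at 0.0204, while the highest correlation of any old with any young library was between the replicates numbered 4. These small values do not settle whether the numbers pair the libraries. With the replicate block the 4 lower calls held and chr12:3833685-3835326 was called higher (edgeR adjusted p = 0.0491). Weak peaks were left out by the count filter: 21 of 51 had too few counts, against 53707 of all 126871 peaks. The alternative with no count filter tested all 51.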
